A study of Mus musculus with 15 samples.

Results

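Macrophage and complement genes were examined in the gastrocnemius, a fast-twitch muscle of the calf, of male mice without muscle Cpt1b and of floxed controls. The set was a list of 10 gene symbols, Cd68, Adgre1, Lyz2, C1qa, C1qb, C1qc, Csf1r, Mrc1, Ctss and Lgals3, looked up among the 13602 gene symbols of the count table. Of these, 9 were found, Adgre1 under its older symbol Emr1, and Cd68 was not analysed here. A filter on low counts left 8 for testing and set Lgals3 aside. The knockout group held 7 libraries of male mice described as a skeletal muscle knockout of Cpt1b, and the control group held 8 libraries of male wild-type mice with the floxed allele. The titles and the series text give 12 to 14 weeks of chow feeding for both groups, while the diet field of every sample reads 45% HFD. The sources used here give neither the promoter behind the deletion nor the exons removed, nor the strain or the age of the mice. As many mice are stated as there are libraries, and a library is treated as 1 animal throughout. Cpt1b encodes the muscle form of the enzyme that lets long-chain fatty acids enter mitochondria, and the comparison addresses whether macrophage and complement transcripts differ where the fibres lack it.

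Macrophages are resident immune cells of muscle that lie between the fibres, clear dying cells and help repair after injury. They depend on the receptor encoded by Csf1r for survival, and tissue macrophages are a main source of C1q, the recognition molecule that starts the classical complement pathway. C1q is built from equal numbers of A, B and C chains, encoded by C1qa, C1qb and C1qc, which lie next to each other. In bulk muscle RNA a lower level can come from fewer such cells or from less RNA per cell, and these cannot be told apart.

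SAGE sequences and counts 1 short tag per transcript, taken close to its 3′ end, so the count of a gene does not scale with the length of its transcript. The tag expected for each member was read from the GENCODE M21 transcripts of GRCm38 as the 27 bases from the CATG site nearest the 3′ end of the longest protein-coding transcript. The enzyme was not given in the labels, and CATG is the usual site of the method. The predicted tags of 8 of the 9 members found are shown, with the CATG site in capitals, and Csf1r is described without one. Over all protein-coding transcripts of a gene, 3 different tags are predicted for Adgre1, 3 for Csf1r and 4 for Lgals3. Their counts may therefore include tags not printed here.
Adgre1: CATGttttgaaaagagcacgtcctatt
Mrc1: CATGtagaataataaagctactgagaa
C1qa: CATGaccctagtatggacagtggctga
C1qb: CATGgatgcgtaatcacggggtcaaat
C1qc: CATGgtgggcatagagggctccaacag
Ctss: CATGatagccccaaagtgcttaataaa
Lgals3: CATGggtacaggtgcctgctcacttga
Lyz2: CATGtgtcagtctgtttaacccttgag
Lyz1: CATGaggcattcaggaggactagtgag
Most of these tags lie in the 3′ UTR of the last exon, as for Adgre1 (chr17:57483368-57483394, plus strand), Mrc1 (chr2:14331697-14331723, plus strand), Ctss (chr3:95556358-95556384, plus strand), Lgals3 (chr14:47385931-47385957, plus strand) and Lyz2 (chr10:117277518-117277544, minus strand). The C1q chains are different in this respect. The C1qc tag lies in the coding sequence of exon 3 (chr4:136890077-136890103, minus strand), 300 bases from the transcript end, and the C1qb tag spans the end of the coding sequence in exon 3 (chr4:136880275-136880301, minus strand), 173 bases from it. The C1qa transcript has 2 CATG sites, and the one nearest the 3′ end is in the coding sequence of exon 2 (chr4:136897770-136897796, minus strand), 934 bases from the end of a transcript of 1040 bases. The Lyz2 tag is also contained, base for base, in the transcript of its neighbour Lyz1, whose own tag is at chr10:117287936-117287962 (minus strand). It lies 209 bases from the 3′ end and 43 bases before the last CATG site of Lyz1. The 2 transcripts are 96.0% identical over 1262 aligned bases, and whether a Lyz2 tag was counted for Lyz2, for Lyz1 or for neither cannot be told from the table. For each of the other members, Csf1r included, the tag of the longest transcript occurs in no transcript of another gene.

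Library totals ran from 9390065 to 19397255 tags in knockouts and from 8334436 to 16238258 tags in controls. A level in CPM is the tag count of a gene scaled to the TMM-adjusted total of its library. Log2 fold changes are knockout over control, so a negative one means a lower level in knockouts, and the value after ± is the standard error from the quasi-likelihood fit of edgeR. Cpt1b averaged 3.79 ± 1.64 CPM in knockouts and 7.64 ± 3.17 CPM in controls (SD), with a log2 fold change of -1.03 ± 0.31 (edgeR adjusted p = 0.103). DESeq2 placed it past the threshold (adjusted p = 0.0309), and a tag outside the deleted exons would not check the genotype. Knockout replicate 4 and control replicate 7 lay at 1 end of the leading principal component of all tested genes, which held 44.6% of the variance. Control replicate 4 stood apart in the macrophage genes, and values without it are given beside the members and the lists it moves with. Its 9 members summed to 144.8 CPM, while the other controls lay between 56.4 and 71.4 CPM and the knockouts between 41.9 and 86.2 CPM.

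No macrophage or complement member was called between the genotypes. By edgeR 0 of the 8 tested members passed an adjusted p of 0.05, where 2.17% of all 11062 tested genes passed (1.67% higher and 0.497% lower). DESeq2 called 0 of 9 and limma voom 0 of 8. At an unadjusted p under 0.05 there were 2 of the 8, Csf1r and Lyz2, where 13.6% of all tested genes lay under it. All 8 log2 fold changes were negative, from -0.81 to -0.13, with a median of -0.28, beside a median of 0.0047 over all tested genes, of which 50.6% were positive. Without control replicate 4 the median of the members was -0.07 and 3 of the 8 were positive. In each of the 8 members the knockout and control libraries overlapped, as they did in all but 1.19% of the tested genes. The members were chosen as genes of 1 cell system and were measured in the same libraries, so their directions cannot be taken as independent of each other.

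**Figure D1:**
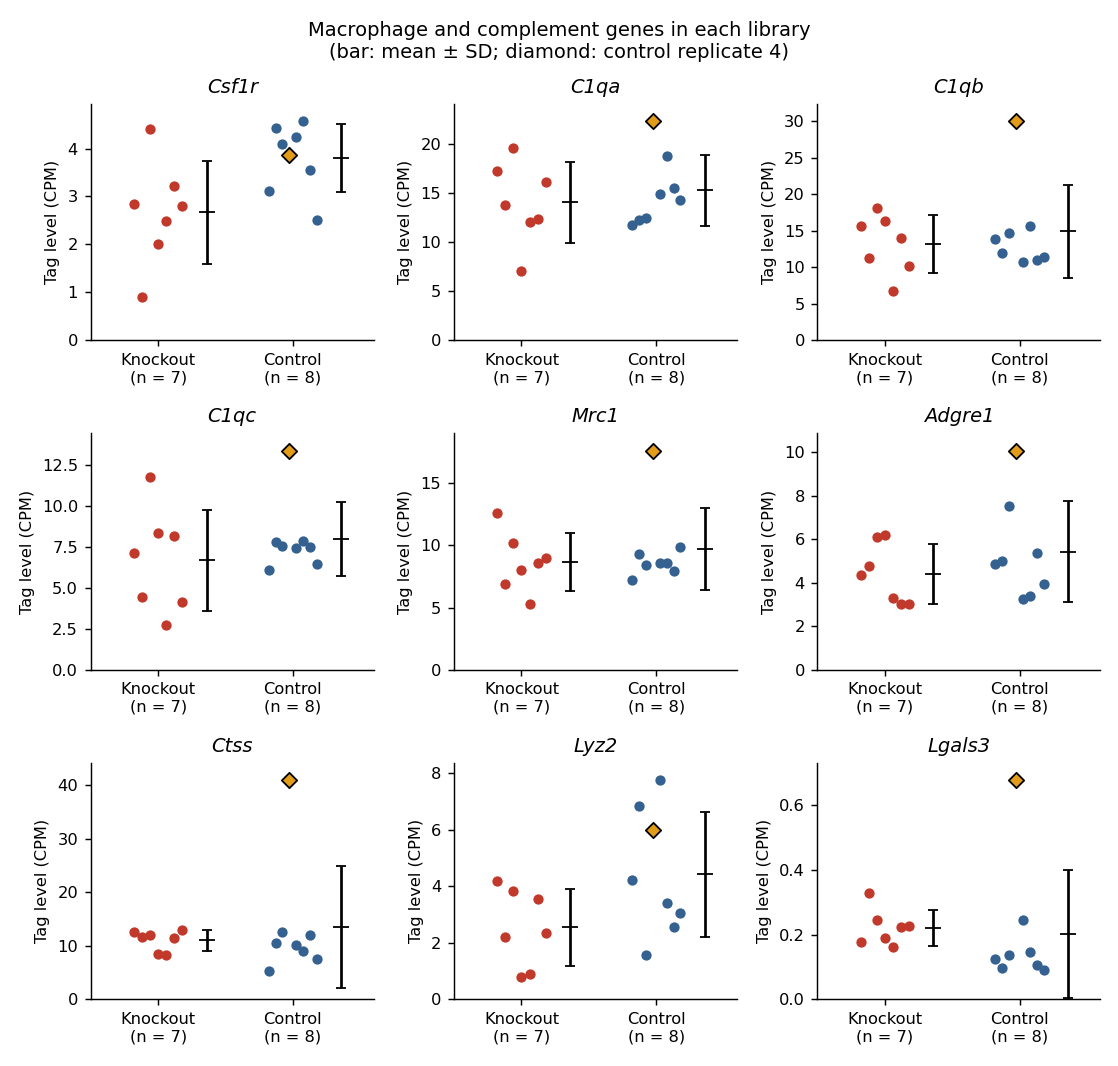
Tag level in CPM (linear axes from 0) of the 9 members found, with 1 point per library, 7 knockouts on the left and 8 controls on the right of each panel, and the mean ± SD beside them. The diamond is control replicate 4, which is the highest point for C1qa, C1qb, C1qc, Mrc1, Adgre1, Ctss and Lgals3, and the genotypes overlap in every panel.

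Csf1r, the receptor tyrosine kinase for CSF1 and IL-34 on chromosome 18, ranged from 0.900 to 4.40 CPM in knockouts with a median of 2.80, and from 2.50 to 4.57 CPM in controls with a median of 3.98. Knockout replicate 2 was the lowest of all libraries, with 11 tags, and knockout replicate 3 lay within the upper controls. Its log2 fold change was -0.52 ± 0.24 (95% interval -1.03 to -0.0097, edgeR adjusted p = 0.359, unadjusted p = 0.0462). In linear terms the interval runs from 0.490 to 0.993 times the control level. Csf1r differed from most members in that control replicate 4, at 3.87 CPM, lay among the other controls, and the log2 fold change without it was -0.52. Without knockout replicate 2 it was -0.38. A mean of 41.1 tags per library limits its precision.

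The ligands of this receptor were measured from a list of CSF1 receptor ligands and signalling genes. Csf1 averaged 3.03 ± 0.606 CPM in knockouts and 4.06 ± 1.33 CPM in controls (log2 fold change -0.43 ± 0.22, edgeR adjusted p = 0.399). Il34, the other ligand, averaged 8.19 ± 2.95 CPM in knockouts and 6.65 ± 3.15 CPM in controls (log2 fold change 0.29 ± 0.28, edgeR adjusted p = 0.646). The smallest p of the list belonged to Pik3cd, the leukocyte catalytic subunit of PI3-kinase, with 4.22 ± 1.70 CPM in knockouts and 5.87 ± 1.23 CPM in controls (log2 fold change -0.49 ± 0.22, edgeR adjusted p = 0.342). None of the 12 tested genes of the list was called by edgeR, DESeq2 or limma voom, 1 had an unadjusted p under 0.05, and their median log2 fold change was -0.07, or 0.05 without control replicate 4.

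C1qa and C1qb had the highest mean levels of the set in both genotypes, C1qc stood lower, and the genotype differences of the 3 chains were small beside their spread. C1qa, the A chain (chromosome 4, 136895917 to 136898803), ranged from 7.10 to 19.6 CPM in knockouts with a median of 13.8, and from 11.8 to 22.3 CPM in controls with a median of 14.6. C1qb, the B chain (136880129 to 136886187), ranged from 6.69 to 18.1 CPM in knockouts with a median of 14.0, and from 10.8 to 29.98 CPM in controls with a median of 12.9. C1qc, the C chain (136889804 to 136893065), ranged from 2.74 to 11.7 CPM in knockouts with a median of 7.12, and from 6.09 to 13.3 CPM in controls with a median of 7.50. The lowest C1qb and C1qc values were both in knockout replicate 5, and the lowest C1qa value was in knockout replicate 4. Control replicate 4 was the highest of all libraries in the 3 genes.

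In the fit the log2 fold change was -0.13 ± 0.19 for C1qa (95% interval -0.54 to 0.28), -0.17 ± 0.24 for C1qb (-0.68 to 0.33) and -0.26 ± 0.26 for C1qc (-0.80 to 0.28). The edgeR adjusted p was 0.778 for C1qa, 0.746 for C1qb and 0.660 for C1qc. As multiples of the control level the intervals run from 0.690 to 1.22 for C1qa, from 0.626 to 1.25 for C1qb and from 0.573 to 1.21 for C1qc, so differences within these bounds, in either direction, were not resolved. Without control replicate 4 the log2 fold change of C1qb turned to 0.05, while that of C1qa was -0.03 and that of C1qc -0.12. Without knockout replicate 4 the value of C1qa was -0.0089.

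**Figure D2:**
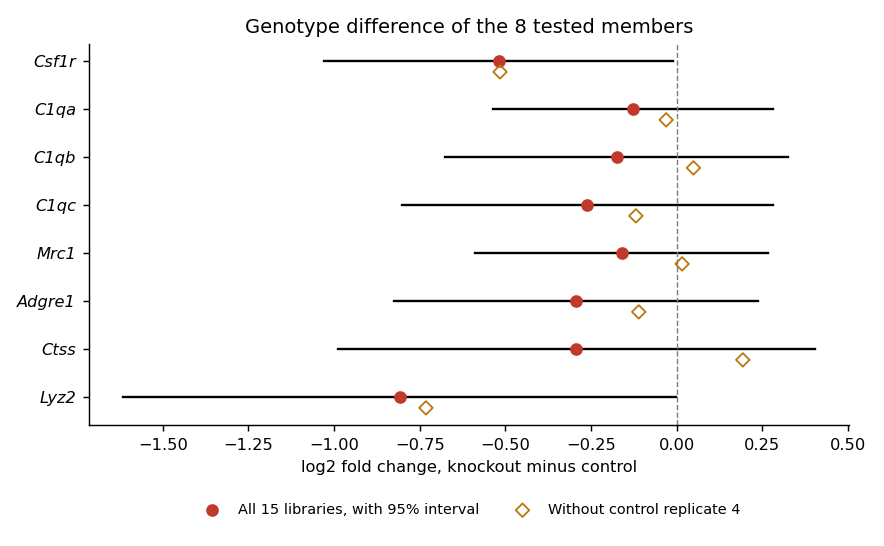
Log2 fold change of knockout minus control for the 8 tested members (points) with 95% intervals from edgeR (lines), and the same fold change without control replicate 4 (open diamonds). All points lie below 0, the intervals of Csf1r and Lyz2 end just below 0, and without that library Ctss, C1qb and Mrc1 lie above 0.

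The proportions of the 3 chains were compared within each library, where scaling cancels. C1qa took 42.4% ± 11.4 of the C1q tags in knockouts and 40.7% ± 4.72 in controls (SD, n = 7 and n = 8). C1qb took 38.6% ± 6.53 in knockouts and 38.2% ± 5.02 in controls. C1qc took 19.0% ± 5.49 in knockouts and 21.1% ± 1.88 in controls. The libraries of both genotypes overlapped in each share, and the differences in share were not tested. The knockouts held both extremes of the A chain. Knockout replicate 4 had 149 C1qa tags among 666 C1q tags, or 22.4% (95% Wilson interval 19.4 to 25.7), and knockout replicate 5 had 150 among 267, or 56.2% (50.2 to 62.0). These intervals cover counting error only. They do not overlap, but the libraries were picked as the extremes after the shares were seen. The controls ranged from 34.0% to 45.6%.

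The B and C chains varied together between animals of the same genotype. After the genotype means were removed, C1qb and C1qc correlated across the 15 libraries with Pearson r = 0.87 (permutation p = 2e-05, adjusted p = 0.00056 over 28 pairs of members) and Spearman rho = 0.85 (permutation p = 0.0001, adjusted p = 0.0028). The correlation was r = 0.80 without the 2 libraries farthest from the median of C1qb, control replicate 4 and knockout replicate 5, and r = 0.88 without control replicate 4 alone. The A chain, whose predicted tag lies far from the 3′ end, gave r = 0.33 with C1qb (permutation p = 0.228, adjusted p = 0.344, Spearman rho = 0.28 with permutation p = 0.306 and adjusted p = 0.389). With C1qc it gave r = 0.26 (permutation p = 0.340, adjusted p = 0.414, Spearman rho = 0.29 with permutation p = 0.285 and adjusted p = 0.389). Without the 2 libraries farthest from the median of C1qa, the A chain had r = 0.49 with C1qb and r = 0.46 with C1qc. The difference between these correlations was not tested, and neither was the part of the tag position in it.

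**Figure D3:**
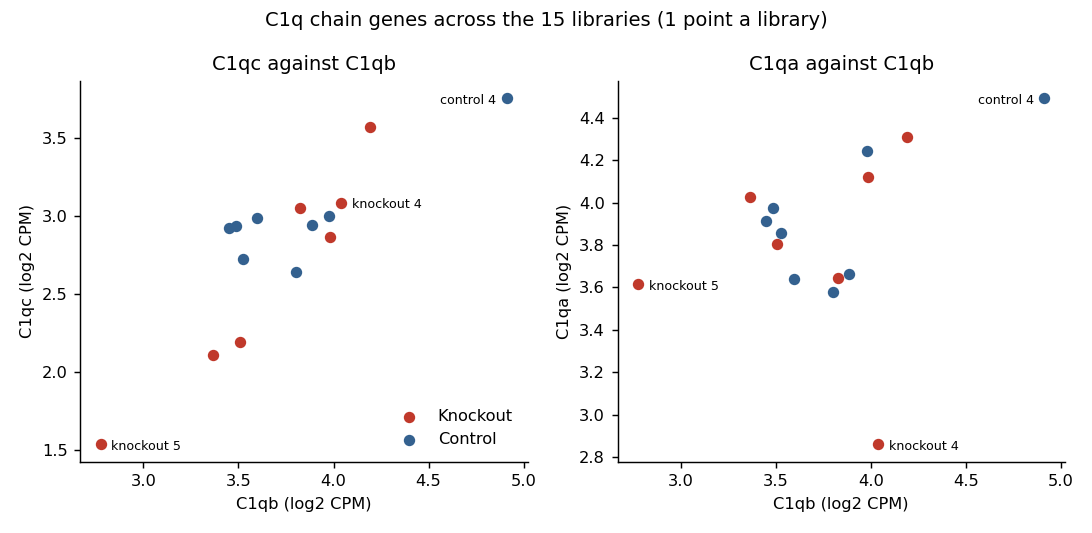
Log2 CPM of C1qc (left) and of C1qa (right) against C1qb, with 1 point for each of the 15 libraries, knockouts in red and controls in blue. C1qc follows C1qb across its range (r = 0.87 after the genotype means were removed), while in knockout replicate 4 C1qa is the lowest of all libraries at a C1qb level above most of them.

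Over the 28 pairs of tested members, 26 correlations were positive, from r = -0.14 to 0.87 with a median of 0.45. By Pearson's r 5 pairs passed an adjusted p of 0.05, and by Spearman's rho 1 did, C1qb with C1qc. Mrc1 correlated with C1qb (r = 0.80, permutation p = 0.0007, adjusted p = 0.0098), with Spearman rho = 0.58 (permutation p = 0.026, adjusted p = 0.127). Its correlation with C1qc was r = 0.72 (permutation p = 0.00257, adjusted p = 0.0204), with rho = 0.62 (permutation p = 0.0146, adjusted p = 0.127). With Ctss it was r = 0.75 (permutation p = 0.00292, adjusted p = 0.0204), with rho = 0.56 (permutation p = 0.0311, adjusted p = 0.127). Adgre1 correlated with C1qb (r = 0.69, permutation p = 0.00401, adjusted p = 0.0225), with rho = 0.53 (permutation p = 0.0439, adjusted p = 0.154). Leaving out the 2 farthest libraries gave r = 0.45, 0.64, 0.42 and 0.47 for these 4 pairs in the same order. Without control replicate 4 alone they had r = 0.63, 0.66, 0.43 and 0.50, and none of the 4 passed, while the pair of C1qb and C1qc did. For Mrc1 with C1qc the correlation was nearly as large without that library, and for the other 3 pairs it was smaller. All values share the libraries and their depth, and whether the members come from the same cells was not tested.

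Promoter sequence was looked at for the pair that moved together. RefSeq promoters of GRCm38.p6, 300 bases from 250 before to 50 after the start, were matched for 7 of the 10 members. They were searched on both strands for AGGAAGT, a form of the core site of ETS factors such as PU.1, the product of Spi1, which macrophages need for their development. The motif was chosen after the sequences were seen. It was found in 5 of the 7, those of C1qb, C1qc, Mrc1, Ctss and Lyz2, while 9.4% of the 32851 promoters of this length hold it. It was absent from those of Cd68 and Lgals3. No promoter was matched for C1qa, Adgre1 and Csf1r, so the A chain was not searched. The motif does not set C1qb and C1qc apart from Mrc1, Ctss and Lyz2, which also hold it. Whether it sets them apart from C1qa, Adgre1 or Csf1r cannot be told without those promoters. The windows around it in C1qb and C1qc are shown with the motif, here on the opposite strand and so read as ACTTCCT, in capitals.
C1qb: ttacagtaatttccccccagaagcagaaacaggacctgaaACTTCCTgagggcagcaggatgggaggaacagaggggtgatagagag
C1qc: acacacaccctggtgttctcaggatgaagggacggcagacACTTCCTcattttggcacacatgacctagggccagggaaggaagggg
The C1qb window is chr4:136886207-136886293 (minus strand) with the motif beginning 53 bases before the RefSeq start. The C1qc window is chr4:136893063-136893149 (minus strand) with the motif 195 bases before its RefSeq start. That C1qc start lies inside the gene span given above, so the motif is nearer to the 5′ end of that span. A match of these letters is a description of the window and not a bound site.

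The surface receptors Mrc1 and Adgre1 did not pass either. Mrc1, the mannose receptor of tissue-resident macrophages (chromosome 2, 14229392 to 14332057), ranged from 5.32 to 12.6 CPM in knockouts with a median of 8.57, and from 7.20 to 17.6 CPM in controls with a median of 8.56. The medians were nearly equal, and control replicate 4 stood at 17.6 CPM while no other control exceeded 9.84 CPM. The log2 fold change was -0.16 ± 0.20 (95% interval -0.59 to 0.27, edgeR adjusted p = 0.729), and without control replicate 4 it turned to 0.02.

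Adgre1, the adhesion receptor F4/80 used to mark mouse macrophages (chromosome 17, 57358691 to 57483527), ranged from 3.01 to 6.19 CPM in knockouts with a median of 4.36, and from 3.26 to 10.1 CPM in controls with a median of 4.92. Control replicates 4 and 3 were the highest and all knockouts lay below both. The log2 fold change was -0.29 ± 0.25 (95% interval -0.83 to 0.24, edgeR adjusted p = 0.619), and without control replicate 4 it was -0.11.

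Of the lysosomal and granule proteins, Ctss was the most dependent on 1 animal. Ctss, cathepsin S, a protease that trims the invariant chain for antigen presentation (chromosome 3, 95526786 to 95556403), ranged from 8.22 to 12.9 CPM in knockouts with a median of 11.6, and from 5.22 to 40.9 CPM in controls with a median of 10.3. Control replicate 4 carried 423 tags, or 40.9 CPM, every other control lay at or under 12.6 CPM, and of these 7 controls, replicates 1 and 8 lay below every knockout while the others lay within the range of the knockouts. The mean was 11.0 ± 1.92 CPM in knockouts and 13.5 ± 11.3 CPM in controls (SD). The log2 fold change of -0.29 ± 0.33 (95% interval -0.99 to 0.40, edgeR adjusted p = 0.698) turned to 0.19 without control replicate 4. DESeq2 gave 0.16 after it replaced the count of that library as an outlier.

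Lyz2, lysozyme M of macrophages and neutrophils (chromosome 10, 117277331 to 117282321), ranged from 0.810 to 4.18 CPM in knockouts with a median of 2.35, and from 1.57 to 7.74 CPM in controls with a median of 3.82. The 2 lowest values, in knockout replicates 4 and 5, rested on 17 and 11 tags, and 4 controls exceeded the highest knockout. Lyz2 had a log2 fold change of -0.81 ± 0.38 (95% interval -1.61 to -0.0010, edgeR adjusted p = 0.367, unadjusted p = 0.0497). In linear terms the interval runs from 0.327 to 0.999 times the control level. The biological coefficient of variation of Lyz2 was 0.486, against 0.3202 for genes of its abundance. Without control replicate 4 the log2 fold change was -0.73. Lyz2 is uncertain, because its tag is also found in Lyz1. The row of Lyz1, known in mouse as the lysozyme of intestinal Paneth cells, held 335 to 1509 tags in knockouts and 170 to 1791 tags in controls, which was 10.5 to 88.8 times the Lyz2 count in knockouts and 3.62 to 39.4 times in controls. Lyz1 averaged 58.1 ± 12.8 CPM in knockouts and 54.5 ± 27.4 CPM in controls (log2 fold change 0.09 ± 0.28, edgeR adjusted p = 0.887), so the row with most of the lysozyme tags had a fold change of the opposite sign. Lyz1 was singled out after its values were seen.

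Lgals3, galectin-3, a sugar-binding protein of activated and lipid-laden macrophages (chromosome 14, 47367751 to 47386160), was near the limit of detection. Its libraries held 2 to 4 tags in knockouts and 1 to 7 tags in controls, or 20 tags over all knockouts and 19 over all controls, with 0.161 to 0.327 CPM in knockouts and 0.0894 to 0.677 CPM in controls. The highest count was again in control replicate 4. The gene did not pass the filter on low counts and a difference was not detectable at this depth.

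Since a SAGE count does not scale with length, levels can be set side by side. In knockouts the mean order was C1qa, C1qb, Ctss, Mrc1, C1qc, Adgre1, Csf1r, Lyz2 and Lgals3, with means of 14.1, 13.2, 11.0, 8.66, 6.66, 4.39, 2.67, 2.55 and 0.222 CPM. In controls the order was the same except that Lyz2, at 4.42 CPM, stood above Csf1r, at 3.80 CPM. The libraries of neighbours in these orders overlapped in both groups except for Lgals3, whose highest library lay below the lowest library of every other member in the same group. How efficiently a tag is recovered may differ between genes.

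Other genes of these pathways, from lists chosen with earlier results of these data known, were mostly uncalled as well. Across 8 such lists 1 of 132 tested genes was called, or 0.758%, beside 2.17% of all tested genes, and 15 had an unadjusted p under 0.05. The gene was Lgals4, a galectin known from gut epithelium. It ranged from 2.29 to 4.68 CPM in knockouts with a median of 2.95, and from 0.716 to 2.12 CPM in controls with a median of 1.03. Every knockout lay above every control, and the log2 fold change was 1.53 ± 0.25 (edgeR adjusted p = 0.00162). Lgals4 was called higher under every alternative that tested it. Of the other tested galectins, Lgals8 averaged 17.4 ± 4.22 CPM in knockouts and 13.1 ± 3.68 CPM in controls (log2 fold change 0.41 ± 0.19, edgeR adjusted p = 0.351). Lgals1, the most abundant of them, averaged 466 ± 134 CPM in knockouts and 346 ± 141 CPM in controls (log2 fold change 0.43 ± 0.24, edgeR adjusted p = 0.443). The galectin list held 5 tested genes, with log2 fold changes from -0.04 to 1.53. Its Lgals9 and Lgals3bp had 0.06 and 0.0060 without control replicate 4.

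**Figure D4:**
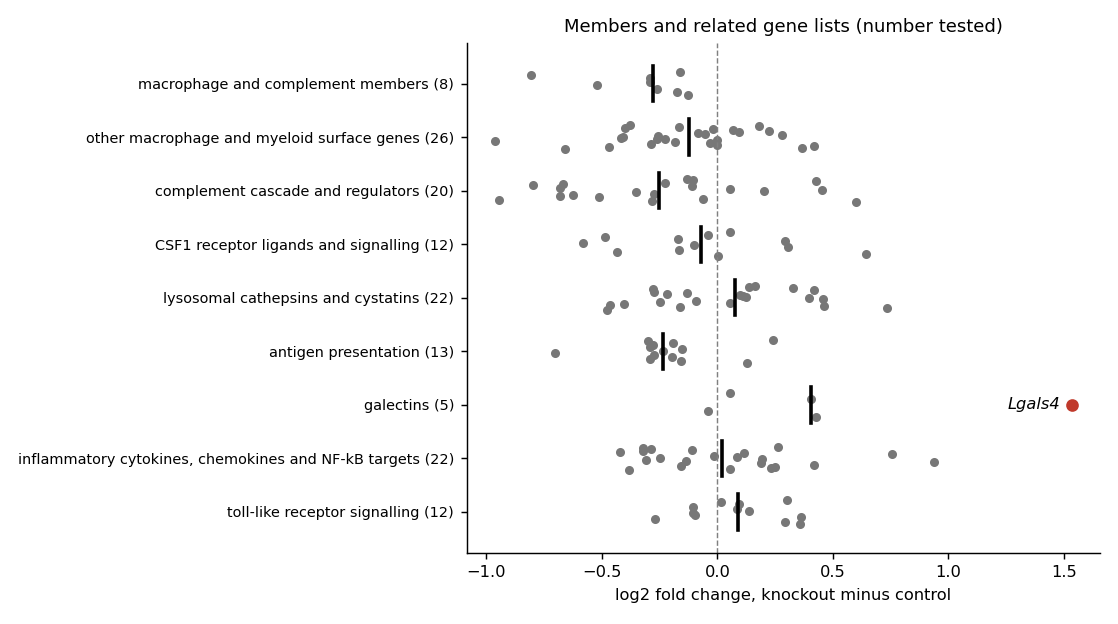
Log2 fold change of knockout minus control for each tested gene (points) of the macrophage and complement members and of 8 related lists, with the median of each list as a vertical bar and the number tested in parentheses. Lgals4 is the only point past an edgeR adjusted p of 0.05 (red), and the medians run from -0.28 for the members to 0.41 for the galectins.

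Among other macrophage and myeloid surface genes 0 of 26 were called by edgeR, with 1 at an unadjusted p under 0.05, and 0 by limma voom or DESeq2. The median log2 fold change was -0.12, with 18 negative and 8 positive. The smallest p belonged to Fcrls, an Fc receptor-like scavenger protein, with 10.6 ± 2.65 CPM in knockouts and 14.0 ± 3.73 CPM in controls (log2 fold change -0.41 ± 0.19, edgeR adjusted p = 0.354). Cx3cr1, the fractalkine receptor, and Aif1, the calcium-binding protein IBA1, had log2 fold changes of -0.96 and -0.66 (edgeR adjusted p = 0.410 and 0.387), with control replicate 4 the highest of all libraries in both. Tyrobp, the adaptor of activating myeloid receptors, had -0.38 (edgeR adjusted p = 0.6251), and the haemoglobin scavenger receptor Cd163 had 0.42 (edgeR adjusted p = 0.551). Control replicate 4 was the highest of the 15 libraries in 11 of the 26 genes and in 6 of the 8 tested members, and in 5.93% of all tested genes. Without it the median of the 26 was -0.02, with 14 negative and 12 positive, and the log2 fold change was -0.27 for Cx3cr1, -0.43 for Aif1, -0.19 for Tyrobp and -0.30 for Fcrls.

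Complement components and regulators outside C1q gave 0 of 20 called by edgeR and by limma voom, with 4 at an unadjusted p under 0.05 and a median log2 fold change of -0.25. For the 40 symbols listed 27 rows were found. C3, C4a, C4b, C5 and C9 had none, so these central components of the cascade were not measured here. Cd55, decay-accelerating factor, which restrains complement at the cell surface, ranged from 39.7 to 44.7 CPM in knockouts with a median of 41.4, and from 45.1 to 64.3 CPM in controls with a median of 52.5. Every knockout lay below every control. The log2 fold change of -0.35 ± 0.11 missed the threshold by edgeR (adjusted p = 0.108) and passed it by DESeq2 (adjusted p = 0.0235). The other 3 under an unadjusted p of 0.05 were C1s, the protease that C1q activates, Cfb, factor B, and Cfp, properdin. C1s averaged 3.39 ± 1.42 CPM in knockouts and 6.50 ± 3.06 CPM in controls (log2 fold change -0.94 ± 0.34, edgeR adjusted p = 0.2005), and it is uncertain because mice carry a close copy of this gene. Cfb and Cfp had log2 fold changes of -0.68 and -0.67 at means of 0.979 and 1.95 CPM in knockouts and 1.64 and 3.11 CPM in controls (edgeR adjusted p = 0.297 and 0.302). C3ar1 and C5ar1, the receptors for complement fragments, had -0.51 and -0.68 (edgeR adjusted p = 0.464 and 0.545). Of the 20 tested genes 15 had negative and 5 had positive log2 fold changes, from -0.94 to 0.60. Without control replicate 4 the median of the list was -0.20, and C3ar1 had -0.20.

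Antigen presentation genes gave 0 of 13 called, with 11 negative and a median log2 fold change of -0.23. H2-D1, a class I heavy chain that is uncertain because close relatives may share its tag, averaged 11.4 ± 5.47 CPM in knockouts and 18.6 ± 7.92 CPM in controls (edgeR adjusted p = 0.3404), and Cd74, the invariant chain cut by cathepsin S, 119.9 ± 25.1 CPM in knockouts and 133.7 ± 51.0 CPM in controls (edgeR adjusted p = 0.744). Lysosomal cathepsins and their inhibitors gave 0 of 22, with 12 positive and a median of 0.08. Ctsd, cathepsin D, averaged 696 ± 169 CPM in knockouts and 920 ± 195 CPM in controls (log2 fold change -0.40 ± 0.17, edgeR adjusted p = 0.313). At an unadjusted p under 0.05 there were 1 antigen presentation gene and 3 lysosomal genes, and DESeq2 and limma voom called 0 in either list.

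Inflammatory cytokines, chemokines and NF-kB targets gave 0 of 22 called by edgeR and limma voom, with 2 at an unadjusted p under 0.05 and a median log2 fold change of 0.02. Of the 42 genes listed 28 had a row. Tnf, Il1b, Il6, Ccl5 and Cxcl10 were among those without one, so these cytokines and chemokines were not measured here. Nfkbia, the inhibitor of NF-kB that is itself induced by it, ranged from 17.4 to 50.02 CPM in knockouts with a median of 25.5, and from 11.7 to 21.6 CPM in controls with a median of 16.3. Its log2 fold change of 0.75 ± 0.20 had an edgeR adjusted p of 0.0527 and a DESeq2 adjusted p of 0.0177, and the highest value was in knockout replicate 4. Of the 22 genes listed for toll-like receptor signalling 16 had a row, and Tlr2 and Tlr9 had none. Toll-like receptor signalling gave 0 of 12 by edgeR and limma voom, with 1 at an unadjusted p under 0.05. That gene was Irak1, a kinase of this pathway, with 81.9 ± 4.29 CPM in knockouts and 64.0 ± 7.73 CPM in controls. Every knockout lay above every control (log2 fold change 0.36 ± 0.10, edgeR adjusted p = 0.0879, DESeq2 adjusted p = 0.0189).

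The genes whose log2 CPM followed the mean standardized level of the members most closely over the 15 libraries were Fcgr2b (r = 0.91), Ankrd1 (r = 0.90), Emp1 (r = 0.89), Col8a1 (r = 0.88), Arpc1b (r = 0.84) and Fcrls (r = 0.84). Without control replicate 4 these values were 0.82, 0.80, 0.79, 0.73, 0.68 and 0.75. Fcgr2b, an inhibitory Fc receptor, ranged from 22.6 to 60.3 CPM in knockouts with a median of 40.6, and from 37.6 to 99.7 CPM in controls with a median of 42.8. Ankrd1, a stretch-responsive muscle protein, ranged from 5.56 to 29.2 CPM in knockouts with a median of 14.4, and from 9.02 to 100.0 CPM in controls with a median of 15.02. The highest value was in control replicate 4 in both. None of the 6 was called by edgeR, with adjusted p from 0.342 for Col8a1 to 0.671 for Arpc1b.

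Markers of other cells were read beside these results. Muscle fibre markers summed to between 111790 and 174510 CPM in knockouts and between 126650 and 185680 CPM in controls, with Tnnt3 called lower (log2 fold change -0.65, edgeR adjusted p = 0.00629) and Mb called higher (0.71, edgeR adjusted p = 0.0376) among 14 tested. The call of Mb was lost in 10 of 15 fits that each left out 1 library (adjusted p from 0.00736 to 0.1097), with the library total alone and with the replicate block, and that of Tnnt3 with the replicate block only. Fibroblast markers summed to between 1482 and 3340 CPM in knockouts and between 2472 and 4178 CPM in controls. Control replicate 4 had the highest sum, 4178 CPM, but control replicates 2 and 1 were close, at 4093 and 4033 CPM. Of the 11 tested fibroblast markers 8 had negative fold changes, 5 an unadjusted p under 0.05, and Gsn, gelsolin, was called lower (log2 fold change -0.54 ± 0.13, edgeR adjusted p = 0.0351). That call was lost in 11 of the 15 fits without 1 library (adjusted p from 0.0133 to 0.092), with the library total alone and with the replicate block, while the log2 fold change stayed between -0.60 and -0.50 without any 1 library. The part of connective tissue cells in the macrophage values was not tested. Endothelial markers summed to between 290.5 and 379 CPM in knockouts and between 302 and 397 CPM in controls. None of the 11 tested was called, and Eng, an endothelial TGF-beta coreceptor and the 1 marker with an unadjusted p under 0.05, had the smallest p (log2 fold change 0.46 ± 0.16, edgeR adjusted p = 0.204).

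Neutrophil and lymphocyte markers were scarce. In the endothelial, neutrophil, mast and dendritic, erythroid and satellite cell lists DESeq2 and limma voom also called 0. The 3 neutrophil markers with a row in the table, of 10 listed, summed to between 3.56 and 6.76 CPM in knockouts and between 4.03 and 5.46 CPM in controls, with a log2 fold change of 0.17 for Cxcr2 (edgeR adjusted p = 0.685). The 4 of 17 markers of T, B and NK lymphocytes with a row summed to between 0.886 and 2.69 CPM in knockouts and between 0.994 and 2.28 CPM in controls, and none passed the filter on low counts. Mast and dendritic cell markers summed to between 13.2 and 19.1 CPM in knockouts and between 13.4 and 26.2 CPM in controls, and Kit, with a log2 fold change of -0.27 (edgeR adjusted p = 0.564), had the smallest p of 6 tested. The 5 of 9 erythroid markers with a row summed to 14.5 to 60.7 CPM in knockouts and 16.9 to 99.4 CPM in controls. The listed beta-globins had no row. Hba-a1, whose tag a near-identical copy may share, had a log2 fold change of -0.39 (edgeR adjusted p = 0.638). This value turned to 0.02 without control replicate 7. Adipocyte markers summed to between 908 and 1646 CPM in knockouts and between 860 and 1159 CPM in controls, and Lep, leptin, was the 1 gene of 8 tested that was called, lower (log2 fold change -1.83 ± 0.43, edgeR adjusted p = 0.0295). Its call was lost in 9 of the 15 fits without 1 library (adjusted p from 0.00837 to 0.0702), and 5 of the 8 adipocyte markers had positive fold changes, with a median of 0.10. Satellite cell markers summed to between 57.5 and 133 CPM in knockouts and between 67.4 and 164 CPM in controls, with 0 of 7 called by edgeR, 2 at an unadjusted p under 0.05, and Chodl the smallest p (log2 fold change -0.44, edgeR adjusted p = 0.333). The embryonic myosin Myh3, made by regenerating fibres, had a log2 fold change of 0.39 ± 0.55 (edgeR adjusted p = 0.757). Its highest value, 28.7 CPM in knockout replicate 6, decided the sign, since the log2 fold change without that library was -0.48.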

How the data were processed

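The deposited counts are whole SOLiD SAGE tags for each gene symbol, from 500 ng total RNA a library per the labels' protocols; a normalized table was not used. The submitters' processing notes name DESeq2, without a version, and the builds mm10 and GRCm38.p1. The sources used here do not give the aligner, the counting step or the annotation. The table holds 13602 symbols and 360 empty lines without counts. Each gene has at least 22 tags in all and tags in at least 6 libraries, so the table as given holds no gene rarer than that. Old symbols were matched through RefSeq synonyms.

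Counts were tested with edgeR 4.0.16 (R 4.3.3; robust quasi-likelihood, TMM scaling, filterByExpr with a minimum count of 10, genotype as the only term), with Benjamini-Hochberg adjustment over all 11062 genes kept; 2540 were removed. The procedure was tested on simulated counts. Log2 CPM used a prior count of 2. A standard error is the absolute log2 fold change over the square root of F. Correlations used 100000 permutations. DESeq2 1.42.0, limma 3.58.1 voom, other scalings and filters, a replicate block and leaving out libraries were alternatives. Same-numbered libraries were not paired by the labels. The members and lists were chosen with earlier results of these data known. Genes named are the members, Cpt1b, up to 4 called genes per list or else the gene with the smallest p, and the 6 most alike in pattern; a few others were named after their values were seen. Intervals are 95%.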

Additional observations from a re-analysis of the deposited data

Results flagged for a closer look

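In 66 groups examined (33 genes in 7 knockouts and in 8 controls), 14 had a library whose distance from its nearest neighbour took an unusually large part of the whole range of its group. Chance would give about 1 in 20 groups if the groups were independent and their values normally distributed. The groups share the same libraries and some genes were chosen for their likeness, so the 14 cannot be set against that rate. Of the 14, 10 were control replicate 4, and 5 of these were members. In that library C1qb stood at 30.0 CPM (next control 15.6), C1qc at 13.3 CPM (7.84), Mrc1 at 17.6 CPM (9.84), Ctss at 40.9 CPM (12.6) and Lgals3 at 0.677 CPM (0.245). The genes most like the members in pattern were high there too, with Fcgr2b at 99.7 CPM (next control 53.5), Ankrd1 at 100.0 CPM (27.8), Emp1 at 210.0 CPM (131), Col8a1 at 55.4 CPM (20.6) and Arpc1b at 118 CPM (70.8), and they were chosen by that likeness.

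The others were Nfkbia at 50.0 CPM in knockout replicate 4 (next knockout 26.9), Gsn at 115.0 CPM in knockout replicate 2 (next lowest 146), Hba-a1 at 59.7 CPM in control replicate 7 (23.8) and Myh3 at 28.7 CPM in knockout replicate 6 (6.84).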

How the results depend on the processing

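No tested member was called in any of the 23 alternatives (RLE scaling, library total alone, no filter, a mean of at least 5 CPM, DESeq2, limma voom, the replicate block, each of the 15 libraries left out, and control replicate 7 with knockout replicate 4 left out), and without 1 library the count was 0 throughout. Log2 fold changes turned sign for Ctss (0.16 by DESeq2, which replaced the count of control replicate 4) and for Myh3 (-0.126 with the replicate block). With 1 library, or control replicate 7 and knockout replicate 4, left out they ran from -0.41 to 0.19 for Ctss, from -0.298 to 0.0486 for C1qb, from -0.275 to 0.0155 for Mrc1 and from -0.941 to 0.0296 for Ankrd1, each highest without control replicate 4. They ran from -0.593 to 0.129 for Hba-a1, highest without control replicate 7 and knockout replicate 4 (0.0165 without control replicate 7 alone), and from -0.476, without knockout replicate 6, to 0.647 for Myh3. The cause was not tested.

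Over all genes 240 were called, 455 by DESeq2, 117 with the replicate block, 403 without control replicate 7 and knockout replicate 4, and 161 to 465 without 1 library. Same-numbered libraries correlated from -0.45 to 0.314 and 1 of 7 matched its own number best, so the numbers were not taken as pairs. Of the genes of the other lists 5 were called, 3 at a mean of at least 5 CPM, 9 by DESeq2, 2 with the replicate block, 8 without control replicate 7 and knockout replicate 4, and 2 to 10 without 1 library. The 5 correlated pairs of members became 1 without control replicate 4, an alternative added after the data were seen. Depth limits Lgals3, with 1 to 7 tags a library.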
